A study of Mus musculus with 12 samples.

Results

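The RNA levels of 10 genes that help to decide whether a cell leaves G1 and starts to copy its DNA were compared in mouse embryonic stem (ES) cells labelled as knockouts of the histone methyltransferase SUV420H2, alone or together with SUV420H1. They were the cyclin genes Ccnd3, Ccne1, Ccne2 and Ccna2, the genes of the cyclin-dependent kinase (CDK) inhibitors Cdkn1b, Cdkn2a, Cdkn2b and Cdkn2c, and Rb1 and E2f1. They are 10 of the 22878 gene symbols in the deposited tables, picked by symbol, with the longest transcript model standing for each gene. Polyadenylated RNA was sequenced in 12 libraries. The DKO group (labelled SUV420H1_H2_DKO), the KO group (labelled SUV420H2_KO) and the WT group each had 2 libraries of undifferentiated ES cells, 1 library after 8 days and 1 library after 12 days of differentiation. SUV420H2 and SUV420H1 add the last 2 methyl groups to lysine 20 of histone H4, and the comparisons ask which transcripts differ without them and how each genotype changes on differentiation. All lines were kept on gelatin without feeder cells in medium with 1.5 µM of the GSK3 inhibitor CHIR9901. How the cells were differentiated, whether a line is 1 clone, which alleles were made and whether the 2 ES libraries of a group came from separate cultures are not given in the sources used here, so p-values measure only the spread between these libraries. No genotype had 2 libraries of the same day. The spread after differentiation thus came from what additive effects of genotype and day left over, not from replicates. Tests of change on differentiation pooled it with the spread of the ES libraries.

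In the textbook account, cyclin D with CDK4 or CDK6, and then cyclin E and cyclin A with CDK2, phosphorylate the retinoblastoma protein RB, which releases E2F transcription factors to switch on the genes of S phase. The inhibitors of the INK4 family, encoded by Cdkn2a, Cdkn2b and Cdkn2c, bind CDK4 and CDK6, and p27, the product of Cdkn1b, holds back cyclin E and cyclin A complexes with CDK2. Mouse ES cells are known for a short G1 phase with cyclin E and CDK2 activity through most of the cycle, and for lengthening G1 when they differentiate.

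Reads counted in genes were 22538336 to 26675600 per library. Levels are given as TMM-scaled RPKM, reads scaled to the length of the transcript model and to the reads in genes of the library, the library sizes adjusted by edgeR's TMM factors. Suv420h2 was at 10.5 and 6.72 TMM-scaled RPKM in DKO ES cells and at 8.55 and 7.76 in KO ES cells, against 55.1 and 50.1 in WT ES cells. Suv420h1 was at 9.95 and 11.5 TMM-scaled RPKM in DKO ES cells, against 7.29 and 8.12 in WT ES cells, and was called 1.40-fold higher in DKO (log2 fold change 0.49, SE 0.13, edgeR adjusted p = 0.0057), a call lost when WT ES replicate 1 was left out (0.0957). Counts over a whole transcript do not test the loss of an exon, so the second deletion in DKO was not checked here.

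The labelled cell state was examined with marker genes, and the KO and DKO libraries labelled as differentiated kept much of their ES cell RNA. The summed level of 10 ES cell markers was 4369 and 3788 TMM-scaled RPKM in DKO ES cells, 5379 and 5738 in KO ES cells, and 6517 and 6447 in WT ES cells. At days 8 and 12 the same sum was 5432 and 2348 TMM-scaled RPKM in DKO, 3376 and 1449 in KO, and 483 and 402.0 in WT. Single markers differed: at day 8 in DKO, Utf1 was at 1559 TMM-scaled RPKM, against 359 and 207 in DKO ES cells, while Klf4 was at 122, against 618 and 426, and Esrrb at 205, against 579 and 593. By the sum, every DKO and KO library of days 8 and 12 held more than the WT ones. Pou5f1, the core pluripotency factor, was at 1321 and 697 TMM-scaled RPKM at days 8 and 12 in DKO, at 776 and 302 in KO, and at 84.4 and 41.5 in WT. Klf4 went the other way at day 12, at 204 in WT against 106 in DKO and 16.8 in KO. At day 8 it was at 12.3 in KO and 18.1 in WT. Zfp42 was already low in mutant ES cells, at 170.1 and 169.8 in DKO and 129.6 and 149.9 in KO, against 1451.5 and 1375 in WT. In bulk RNA, fewer cells of a type and less RNA per cell cannot be told apart.

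**Figure D1:**
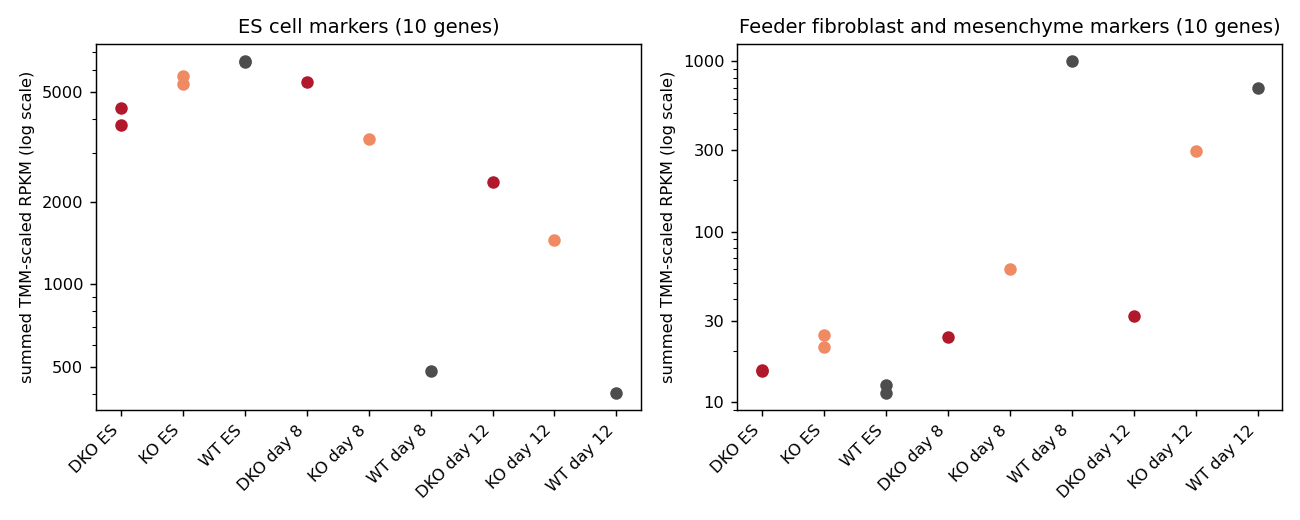
Summed TMM-scaled RPKM (log scale) of 10 ES cell markers (left) and 10 feeder fibroblast and mesenchyme markers (right), with 1 point per library. The ES marker sum at day 8 was 5432 in DKO, 3376 in KO and 483 in WT, and the mesenchyme sum at day 8 was 23.95, 60.5 and 1009 in DKO, KO and WT.

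Markers of other cell types moved with genotype as well. The 10 feeder fibroblast and mesenchyme markers summed to 15.5 and 15.1 TMM-scaled RPKM in DKO ES cells, 20.9 and 24.6 in KO ES cells, and 12.6 and 11.3 in WT ES cells, with 7 or 8 of the 10 under 1 and Col1a1 at 0.365 or less in every ES library. At days 8 and 12 their sum was 23.95 and 32.05 TMM-scaled RPKM in DKO, 60.5 and 298 in KO, and 1009 and 696 in WT. Extraembryonic endoderm markers summed to 39.55 to 52.1 in DKO ES cells, 7.84 to 10.6 in KO ES cells and 5.54 to 5.55 in WT ES cells, and after differentiation to 70.25 to 729, 58.6 to 598 and 534 to 1425 TMM-scaled RPKM in DKO, KO and WT. Gata4 made up most of the DKO ES sum, at 37.8 and 29.9, against 2.47 and 2.72 in WT ES cells. Trophoblast markers summed to 38.6 to 38.9 in DKO ES cells, 13.8 to 16.4 in KO ES cells and 13.4 to 13.75 in WT ES cells, and later to 24.7 to 173.5, 253 to 451 and 508 to 668 TMM-scaled RPKM in DKO, KO and WT. Most of the sum in DKO ES cells was Krt8, at 29.9 and 30.9, against 7.98 and 7.96 in WT ES cells. Blood and endothelium markers summed to 31.0 to 31.6 in DKO ES cells, 58.0 to 64.0 in KO ES cells and 26.5 to 26.7 in WT ES cells, and later to 17.4 to 29.8, 115 to 389.7 and 99.5 to 4293 TMM-scaled RPKM in DKO, KO and WT. Pecam1 made up most of each ES sum, at 30.6 and 30.3 in DKO, 62.4 and 55.9 in KO and 25.9 and 25.3 in WT. Neural markers summed to 179 to 205, 240.5 to 293 and 173 to 180.4 TMM-scaled RPKM in DKO, KO and WT ES cells and after differentiation to 96.4 to 106 in DKO, 67.0 to 87.7 in KO and 26.4 to 28.7 in WT. The near-equal DKO and WT sums in ES cells hid opposite differences. Sox1 was at 120.8 and 108.7 in DKO, against 5.49 and 5.66 in WT, and Tubb3 at 73.9 and 58.5, against 151.6 and 158.1. Cardiac markers summed to at most 20.3 in any library. The part of these cells in the results below was not tested.

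Among the 10 genes, Ccnd3, Ccna2 and Cdkn1b took turns at the top when levels per length were ranked within a library. Cdkn1b ranked first in both DKO ES libraries and in the DKO library of day 12, and at rank 6 in KO and rank 5 in WT ES cells. Ccne1 was at rank 5 in DKO ES cells and at rank 3 in KO and WT ES cells. Over the 12 libraries the highest level divided by the lowest was 17.5 for Cdkn2a, 17.4 for Cdkn2b, 10.5 for Cdkn2c, 8.54 for Ccne1 and 7.55 for Cdkn1b. It was 6.45 for Rb1, 3.38 for Ccnd3, 2.83 for E2f1, 2.28 for Ccna2 and 1.76 for Ccne2, so the inhibitors and Ccne1 varied most and Ccna2 and Ccne2 least.

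**Figure D2:**
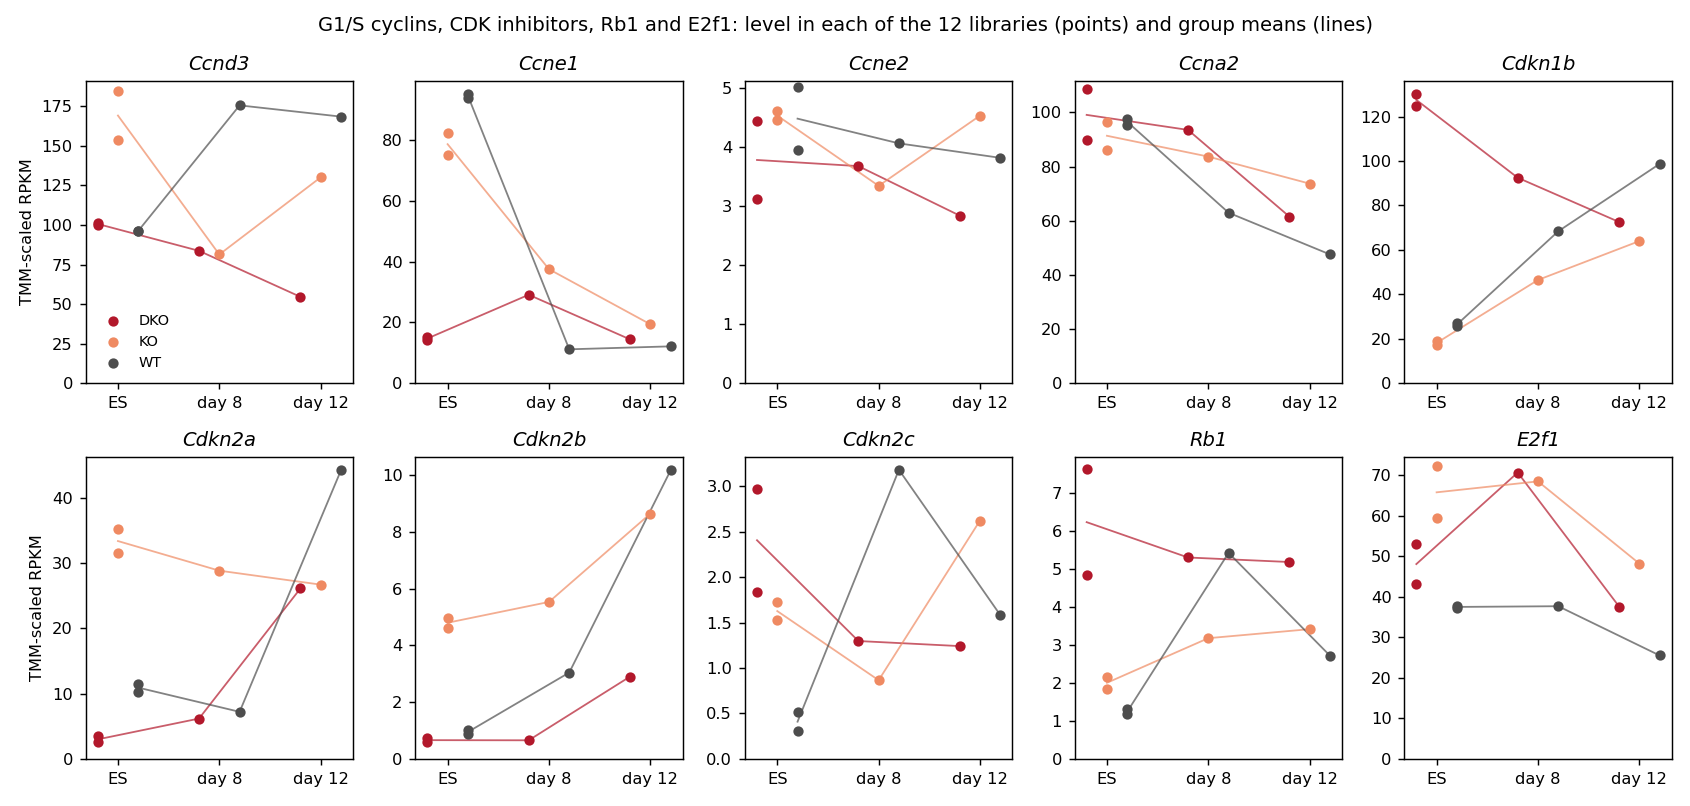
TMM-scaled RPKM of the 10 genes in ES cells, at day 8 and at day 12, with 1 point per library in DKO, KO and WT, and lines through the group means (n = 2 in ES cells, 1 at each day). Within ES cells the DKO points lie far under KO and WT for Ccne1 and far above them for Cdkn1b.

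In ES cells Ccne1 was lower in DKO than in WT, and Rb1 and Cdkn1b were higher. Rb1 and Cdkn2b reached 1 deposited RPKM only in mutant ES libraries, so both entered the fit through groups where they were high. Of the 9 genes tested there (those with at least 1 deposited RPKM in at least 2 libraries of the fit), 5 changed in DKO against WT at an edgeR adjusted p under 0.05, where 63.9% of all 12044 genes tested did. Of these, 3 were higher (32.2% of all genes) and 2 were lower (31.7% of all genes). In KO against WT, 6 of 9 changed (42.7% of all genes), 5 of them higher (23.5%) and 1 lower (19.2%). In DKO against KO, 7 of 9 changed (67.3% of all genes), 2 of them higher (33.3%) and 5 lower (34.1%). With so large a share of all genes changed, the counts alone say nothing particular about these 10, and the sizes and directions of single genes carry the account. The median log2 fold change of the 9 genes was 0.05 in DKO against WT, 0.72 in KO against WT and -0.47 in DKO against KO, beside medians of -0.01, -0.01 and -0.02 over all genes.

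Ccne1 on chromosome 7 encodes cyclin E1, which activates CDK2 at the end of G1. The window around its transcription start is shown because its change was the largest fall in DKO ES cells against WT among these genes. It spans 250 bases before to 50 bases after the start, on the minus strand at chr7:38107441-38107740 of GRCm38.p6 (RefSeq), and holds 41 CpG dinucleotides, more than 96.5% of all 32851 such windows. The counts themselves were made on mm9.
Ccne1: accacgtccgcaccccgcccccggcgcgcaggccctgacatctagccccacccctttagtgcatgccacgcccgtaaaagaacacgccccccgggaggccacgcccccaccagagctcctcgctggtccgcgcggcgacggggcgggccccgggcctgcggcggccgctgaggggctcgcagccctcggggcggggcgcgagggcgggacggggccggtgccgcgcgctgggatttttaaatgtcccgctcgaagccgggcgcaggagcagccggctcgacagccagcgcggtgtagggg
None of the E2F words searched for on both strands (TTCCCGC with TTGGCGC, also TTCGCGC and last TTGCCGC, 1 or more of which 9.6% of all windows hold) occurs in it. A match or its absence describes these letters only.

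The level of Ccne1 was 15.2 and 14.2 TMM-scaled RPKM in DKO ES cells and 75.0 and 82.4 in KO ES cells, against 94.0 and 95.3 in WT ES cells. Both DKO libraries lay far under all others, and KO lay just under WT without overlap. Ccne1 was 6.39-fold lower in DKO than in WT (log2 fold change -2.68, SE 0.12, edgeR adjusted p = 7.33e-09) and 5.42-fold lower in DKO than in KO (-2.44, SE 0.12, edgeR adjusted p = 8.23e-09). The difference of KO from WT, -0.24 on the log2 scale (SE 0.11), did not pass (edgeR adjusted p = 0.104). It passed where a DKO library was left out of the fit (edgeR adjusted p = 0.028 and 0.0275) or where only KO and WT were fitted (0.0253).

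Ccne2, which encodes cyclin E2, was far lower than Ccne1 per length. It stood at 3.12 and 4.45 TMM-scaled RPKM in DKO ES cells, 4.46 and 4.62 in KO ES cells and 5.02 and 3.96 in WT ES cells, and WT overlapped both mutant groups while DKO lay under KO. Its difference of DKO from WT was -0.23 on the log2 scale (SE 0.21, edgeR adjusted p = 0.338). Ccna2, the gene of cyclin A2 that acts in S phase and at mitosis, also overlapped between groups, with 89.6 and 109 TMM-scaled RPKM in DKO ES cells, 86.1 and 96.6 in KO ES cells and 95.4 and 97.7 in WT ES cells. Its log2 difference of DKO from WT was 0.05 (SE 0.12, edgeR adjusted p = 0.749).

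Ccnd3, which encodes cyclin D3, was the cyclin that rose in KO ES cells. Its level was 100.3 and 101 TMM-scaled RPKM in DKO ES cells and 154 and 185 in KO ES cells, against 96.0 and 96.5 in WT ES cells. The KO libraries stood above all the others, and the DKO ones lay close to WT. Ccnd3 was 1.79-fold higher in KO than in WT (log2 fold change 0.84, SE 0.12, edgeR adjusted p = 0.000102) and 1.70-fold lower in DKO than in KO (edgeR adjusted p = 8.1e-05). In DKO against WT its log2 difference was 0.07 (SE 0.12, edgeR adjusted p = 0.59). It has 3 transcript models in the tables, which share reads.

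Cdkn1b on chromosome 6 encodes p27, the inhibitor that binds cyclin and CDK2 complexes. Its start window is shown as that of the inhibitor with the highest level in DKO ES cells. It lies on the plus strand at chr6:134920151-134920450 (GRCm38.p6, RefSeq), holds 30 CpG dinucleotides, more than 88.3% of windows, and holds none of the E2F words.
Cdkn1b: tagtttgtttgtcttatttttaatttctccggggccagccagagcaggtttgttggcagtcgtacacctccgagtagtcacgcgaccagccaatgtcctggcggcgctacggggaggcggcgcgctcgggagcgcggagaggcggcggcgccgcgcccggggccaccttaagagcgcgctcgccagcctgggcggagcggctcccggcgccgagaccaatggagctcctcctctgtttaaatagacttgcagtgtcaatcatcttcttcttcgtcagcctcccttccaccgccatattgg
The level of Cdkn1b was 125 and 130.4 TMM-scaled RPKM in DKO ES cells and 17.3 and 19.0 in KO ES cells, against 27.2 and 25.6 in WT ES cells. DKO lay above every other library of the series, KO lay under WT, and the groups did not overlap. Cdkn1b was 4.86-fold higher in DKO than in WT (log2 fold change 2.28, SE 0.12, edgeR adjusted p = 1.74e-08) and 6.94-fold higher in DKO than in KO (edgeR adjusted p = 2.95e-09). In KO it was 1.43-fold lower than in WT (log2 fold change -0.51, SE 0.11, edgeR adjusted p = 0.00312), a call lost without WT ES replicate 1 (edgeR adjusted p = 0.0587).

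Cdkn2a and Cdkn2b are neighbours on chromosome 4. Cdkn2a has separate starts for a transcript of p19Arf, which acts on Mdm2 and p53, and a transcript of p16Ink4a, which binds CDK4 and CDK6, and Cdkn2b encodes p15Ink4b. The start windows of the p19Arf transcript and of Cdkn2b are shown because both genes moved in the same direction in KO ES cells. Both lie on the minus strand, at chr4:89294570-89294869 for the p19Arf start and chr4:89310983-89311282 for Cdkn2b (GRCm38.p6, RefSeq), 16413 bases apart. The capitals mark the E2F word TTCCCGC, which the p19Arf window holds and the Cdkn2b window does not.
Cdkn2a, p19Arf start: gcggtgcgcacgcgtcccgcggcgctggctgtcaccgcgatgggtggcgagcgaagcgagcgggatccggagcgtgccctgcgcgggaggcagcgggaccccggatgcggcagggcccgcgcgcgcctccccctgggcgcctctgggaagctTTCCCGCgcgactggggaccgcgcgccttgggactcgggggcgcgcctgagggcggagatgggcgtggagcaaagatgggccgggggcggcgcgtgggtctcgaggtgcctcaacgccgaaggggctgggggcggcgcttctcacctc
Cdkn2b: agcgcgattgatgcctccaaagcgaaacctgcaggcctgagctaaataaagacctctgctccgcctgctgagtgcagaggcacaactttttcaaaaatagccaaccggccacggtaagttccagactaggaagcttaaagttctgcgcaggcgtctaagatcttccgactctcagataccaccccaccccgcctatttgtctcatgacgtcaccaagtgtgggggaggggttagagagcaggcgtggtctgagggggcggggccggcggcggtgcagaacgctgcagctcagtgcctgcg
The p19Arf window holds 45 CpG dinucleotides, more than 98.1% of windows, and the Cdkn2b window holds 18, more than 70.3%. The window of the p16Ink4a start, 12427 bases from that of p19Arf, holds 12 and no E2F word. Start windows were found for 7 of the 10 genes, 10 windows in all, and the only other one with a word was a window of Cdkn2c.

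Cdkn2a was at 2.53 and 3.45 TMM-scaled RPKM in DKO ES cells and at 31.5 and 35.2 in KO ES cells, against 11.5 and 10.3 in WT ES cells. The 3 groups stood apart, KO highest and DKO lowest. Cdkn2a was 3.61-fold lower in DKO than in WT (log2 fold change -1.85, SE 0.21, edgeR adjusted p = 8.93e-06) and 3.12-fold higher in KO than in WT (1.64, SE 0.18, edgeR adjusted p = 1.97e-05). DKO lay 11.2-fold under KO (edgeR adjusted p = 3.32e-08). The models of p19Arf (929 bases, used here) and p16Ink4a (850 bases) share reads. The p19Arf model had more reads in all 12 libraries.

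Cdkn2b had few reads, 18 and 25 in DKO ES cells, 155 and 160 in KO ES cells and 29 and 35 in WT ES cells. These are 0.583 and 0.738 TMM-scaled RPKM in DKO, 4.61 and 4.98 in KO and 0.872 and 1.03 in WT. KO stood above both other groups, and DKO lay just under WT without overlap. Cdkn2b was 5.14-fold higher in KO than in WT (log2 fold change 2.36, SE 0.31, edgeR adjusted p = 7.29e-05) and 7.30-fold lower in DKO than in KO (edgeR adjusted p = 7.92e-06). Among ES libraries it reached 1 deposited RPKM only in the 2 KO ones (2.38 and 2.53). It thus entered the ES fit through the group where it was high, and these 2 calls are not independent of that filter. Its log2 difference of DKO from WT, -0.51 (SE 0.36), did not pass (edgeR adjusted p = 0.239). On limma's log2(RPKM + 1) scale, which compresses low genes, the Cdkn2b log2 values were 1.21 in KO against WT and -1.37 in DKO against KO.

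Cdkn2c, the gene of p18Ink4c, had 45 and 80 reads in DKO ES cells, 46 and 39 in KO ES cells and 8 and 14 in WT ES cells, which are 1.84 and 2.98, 1.72 and 1.53, and 0.303 and 0.517 TMM-scaled RPKM in DKO, KO and WT. Both mutant groups lay above WT, and DKO lay above KO. It missed the filter on low values in the ES fit, so it has no test there. With no filter its log2 fold change was 2.52 in DKO against WT (SE 0.50, edgeR adjusted p = 3.19e-05) and 1.97 in KO against WT (SE 0.50, edgeR adjusted p = 0.00168).

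Rb1 on chromosome 14 encodes RB, the protein that the cyclin and CDK complexes phosphorylate. It was at 4.83 and 7.63 TMM-scaled RPKM in DKO ES cells and 2.16 and 1.85 in KO ES cells, against 1.30 and 1.18 in WT ES cells. The groups stood in that order without overlap, and the 2 DKO libraries lay further apart than the others. Rb1 was 5.04-fold higher in DKO than in WT (log2 fold change 2.33, SE 0.23, edgeR adjusted p = 2.85e-06), 3.07-fold higher in DKO than in KO (edgeR adjusted p = 3.63e-05) and 1.64-fold higher in KO than in WT (0.72, SE 0.23, edgeR adjusted p = 0.0256). It reached 1 deposited RPKM in both DKO ES libraries (2.58 and 3.82) and in KO ES replicate 1 (1.11). Both WT ES libraries lay under that (0.676 and 0.609), so these calls are not independent of the filter. The KO call was lost with limma on log2(RPKM + 1) (log2 value 0.30, adjusted p = 0.142), with limma at a pseudocount of 0.1 (0.0711), and without WT ES replicate 2 (edgeR adjusted p = 0.103), KO ES replicate 1 (0.163) or KO ES replicate 2 (0.0617). Genes of chromosome 14 had a median log2 fold change of -0.53 in KO against WT (433 genes tested), 0.08 in DKO against WT and 0.60 in DKO against KO. The part of these shifts in the values of Rb1 was not tested. On the log2(RPKM + 1) scale Rb1 differed by 1.34 in DKO against WT and by 1.04 in DKO against KO.

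E2f1, an activating E2F factor and itself a gene that E2F switches on, was at 52.9 and 43.1 TMM-scaled RPKM in DKO ES cells and 59.3 and 72.2 in KO ES cells, against 37.2 and 37.7 in WT ES cells. Both mutant groups lay above WT, KO above DKO. E2f1 was 1.79-fold higher in KO than in WT (log2 fold change 0.84, SE 0.14, edgeR adjusted p = 0.000341) and lower in DKO than in KO (-0.47, SE 0.13, edgeR adjusted p = 0.00789). In DKO against WT it was 1.29-fold higher (0.37, SE 0.13, edgeR adjusted p = 0.0305). This last call was lost with limma (adjusted p = 0.0742 and 0.0755 at pseudocounts of 1 and 0.1) and without WT ES replicate 1 (0.141), WT ES replicate 2 (0.123) or DKO ES replicate 1 (0.13, log2 value 0.21). The DKO against KO call was lost without KO ES replicate 2 (edgeR adjusted p = 0.0987).

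**Figure D3:**
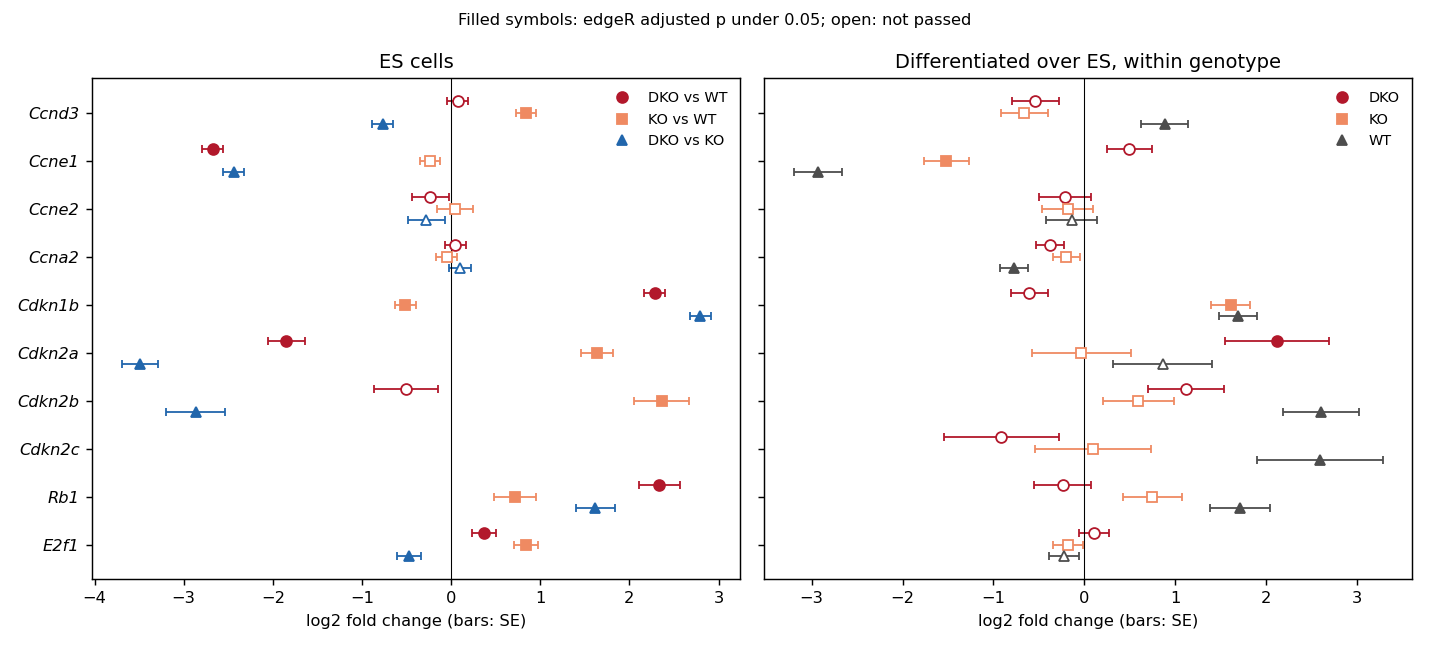
Log2 fold changes with SE of the 10 genes between genotypes in ES cells (left) and of differentiated over ES cells within DKO, KO and WT (right). Filled symbols passed an edgeR adjusted p of 0.05. Cdkn2c has no point in the ES panel because it was not tested there. Ccne1 and Cdkn1b stand at -2.68 and 2.28 in DKO against WT ES cells, and at -2.93 and 1.70 in differentiated over ES cells within WT.

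On differentiation, WT cells lowered Ccne1 and Ccna2 and raised Cdkn1b, Cdkn2b, Cdkn2c, Rb1 and Ccnd3. That is 7 of 10 genes changed in WT (61.1% of all 13429 genes tested), 5 of them higher (31.2%) and 2 lower (29.8%). KO changed 2 of 10 (29.3% of all genes), 1 higher (15.8%) and 1 lower (13.5%). DKO changed 1 of 10 (19.7% of all genes), which was higher (10.4%), and none was lower (9.24%). The median log2 fold change of the 10 genes was -0.22 in DKO, -0.10 in KO and 0.87 in WT, beside 0.01, 0.02 and 0.02 over all genes. The 10 ES markers given above moved with these differences, and their part was not tested.

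Ccne1 fell in WT to 11.2 and 12.1 TMM-scaled RPKM at days 8 and 12, against 94.6 ± 0.874 in WT ES cells (SD, n = 2), a 7.63-fold lower level (log2 fold change -2.93, SE 0.27, edgeR adjusted p = 7.19e-05). In KO it fell to 37.5 and 19.4 TMM-scaled RPKM at days 8 and 12, against 78.7 ± 5.26 in KO ES cells (2.86-fold lower, edgeR adjusted p = 0.00478). In DKO it was at 29.1 and 14.4 TMM-scaled RPKM at days 8 and 12, against 14.7 ± 0.703 in DKO ES cells (log2 difference 0.50, SE 0.25, edgeR adjusted p = 0.191). DKO ES cells thus held Ccne1 near the level that WT cells had at days 8 and 12. The change of Ccne1 in DKO exceeded that in WT by 3.43 on the log2 scale (SE 0.36, edgeR adjusted p = 0.000365), and that in KO exceeded WT by 1.41 (SE 0.35, edgeR adjusted p = 0.0317). The KO value was lost without any 1 of the 6 ES libraries or KO day 8 (edgeR adjusted p = 0.0554 to 0.137) and was 0.90 without WT day 8.

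Cdkn1b rose in WT to 68.4 and 98.7 TMM-scaled RPKM at days 8 and 12, against 26.4 ± 1.17 in WT ES cells (3.24-fold higher, log2 fold change 1.70, SE 0.21, edgeR adjusted p = 0.000286). In KO it rose to 46.5 and 64.0, against 18.1 ± 1.21 TMM-scaled RPKM in KO ES cells (3.06-fold higher, edgeR adjusted p = 0.00209). In DKO it was at 92.5 and 72.6, against 128 ± 4.02 TMM-scaled RPKM in DKO ES cells (log2 difference -0.61, SE 0.21, edgeR adjusted p = 0.0721). Every differentiated WT and KO library lay above the ES libraries of its genotype, and both DKO ones lay below theirs. The difference of the DKO change from the WT change was -2.30 on the log2 scale (SE 0.29, edgeR adjusted p = 0.000786), and that of KO from WT was -0.08 (edgeR adjusted p = 0.868). With DESeq2 the change within DKO passed (log2 fold change -0.62, adjusted p = 0.0299).

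Cdkn2a was at 6.18 and 26.1 TMM-scaled RPKM at days 8 and 12 in DKO, against 2.99 ± 0.655 in DKO ES cells, and was the only gene of the 10 that changed within DKO (4.34-fold higher, log2 fold change 2.12, SE 0.57, edgeR adjusted p = 0.0359). In KO it was at 28.8 and 26.7 TMM-scaled RPKM at days 8 and 12, against 33.3 ± 2.67 in KO ES cells (log2 difference -0.03, SE 0.54, edgeR adjusted p = 0.97). In WT it was at 7.21 and 44.2, against 10.9 ± 0.890 TMM-scaled RPKM in WT ES cells (0.86, SE 0.54, edgeR adjusted p = 0.196). The WT library of day 12 was the highest of the series and that of day 8 lay under WT ES cells. The DKO call was lost without either DKO ES library (edgeR adjusted p = 0.159 and 0.145), without DKO day 8 (0.0664) or day 12 (0.189), and without either ES library of WT (0.0651 and 0.0652) or KO (0.0715 and 0.0664).

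Cdkn2b rose in WT to 3.04 and 10.2 TMM-scaled RPKM at days 8 and 12, against 0.949 ± 0.109 in WT ES cells (6.07-fold higher, log2 fold change 2.60, SE 0.42, edgeR adjusted p = 0.000968). In KO it was at 5.53 and 8.64, against 4.80 ± 0.260 TMM-scaled RPKM in KO ES cells (0.60, SE 0.39, edgeR adjusted p = 0.276). In DKO it was at 0.655 and 2.90, against 0.661 ± 0.110 TMM-scaled RPKM in DKO ES cells (1.12, SE 0.42, edgeR adjusted p = 0.0954). Day 12 was above day 8 in all 3 genotypes. The KO change differed from the WT change by -2.01 on the log2 scale (SE 0.56, edgeR adjusted p = 0.0454), a call lost with no filter on low values (edgeR adjusted p = 0.0629) and without WT day 12, KO day 12 or any 1 of the 6 ES libraries (0.0562 to 0.164). On the log2(RPKM + 1) scale these Cdkn2b values were 1.56 within WT and -1.01 for the difference.

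Rb1 rose in WT to 5.42 and 2.72 TMM-scaled RPKM at days 8 and 12, against 1.24 ± 0.0857 in WT ES cells (3.29-fold higher, log2 fold change 1.72, SE 0.33, edgeR adjusted p = 0.00248). In DKO it was at 5.30 and 5.18, against 6.23 ± 1.98 TMM-scaled RPKM in DKO ES cells (log2 difference -0.24, SE 0.32, edgeR adjusted p = 0.627), and in KO at 3.18 and 3.41, against 2.003 ± 0.221 in KO ES cells (0.75, SE 0.32, edgeR adjusted p = 0.115). The DKO change of Rb1 differed from the WT change by -1.95 (SE 0.46, edgeR adjusted p = 0.0107). Cdkn2c rose in WT to 3.18 and 1.58 TMM-scaled RPKM, against 0.410 ± 0.151 in WT ES cells (6.05-fold higher, log2 fold change 2.60, SE 0.69, edgeR adjusted p = 0.0115), and this call was lost without WT ES replicate 1 (0.0808) or WT day 8 (0.0902, log2 value 1.60). At days 8 and 12 Cdkn2c was at 1.30 and 1.24 TMM-scaled RPKM in DKO and at 0.866 and 2.62 in KO, and the DKO change differed from the WT change by -3.51 (SE 0.93, edgeR adjusted p = 0.0178). That call on Cdkn2c was lost without WT ES replicate 1 (0.0737), DKO ES replicate 2 (0.0594) or WT day 8 (0.0563). On the log2(RPKM + 1) scale the change within WT was 0.999 for Rb1 and 0.95 for Cdkn2c, and the difference of the DKO change from it was -1.10 for Rb1 and -1.34 for Cdkn2c.

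The change of Ccnd3 on differentiation was not the same in the mutants as in WT. It rose in WT to 176 and 169 TMM-scaled RPKM at days 8 and 12, against 96.3 ± 0.329 in WT ES cells (1.85-fold higher, log2 fold change 0.89, SE 0.26, edgeR adjusted p = 0.0171), a call lost without either WT ES library (0.079 and 0.0796) or WT day 8 (0.0524). It was at 83.7 and 54.6 in DKO, against 100.7 ± 0.550 TMM-scaled RPKM in DKO ES cells (-0.54, SE 0.26, edgeR adjusted p = 0.175), and at 81.4 and 130.2 in KO, against 169 ± 21.7 in KO ES cells (-0.66, SE 0.26, edgeR adjusted p = 0.0888). All 4 mutant libraries of days 8 and 12 lay under the ES libraries of their genotype and both WT ones lay above theirs. The change of Ccnd3 differed from that in WT by -1.42 in DKO (SE 0.37, edgeR adjusted p = 0.0155) and by -1.55 in KO (SE 0.37, edgeR adjusted p = 0.0272). The DKO value was lost without either WT ES library (0.0552 and 0.0553) and the KO value without either ES library of WT or KO (0.0656 to 0.107) or without DKO ES replicate 2 (0.0502), and without KO day 12 Ccnd3 also passed within KO (log2 fold change -1.21, edgeR adjusted p = 0.018).

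Ccna2 fell in WT to 62.9 and 47.5 TMM-scaled RPKM at days 8 and 12, against 96.5 ± 1.66 in WT ES cells (1.71-fold lower, log2 fold change -0.77, SE 0.15, edgeR adjusted p = 0.00271). It was at 93.5 and 61.5 TMM-scaled RPKM in DKO and at 83.7 and 73.7 in KO, and neither change passed (edgeR adjusted p = 0.114 and 0.355). E2f1 was at 70.6 and 37.6 TMM-scaled RPKM at days 8 and 12 in DKO, 68.4 and 48.1 in KO and 37.6 and 25.5 in WT, with no change past the test within a genotype (edgeR adjusted p = 0.659, 0.449 and 0.263). Ccne2 stayed between 2.84 and 4.54 TMM-scaled RPKM in these 6 libraries (edgeR adjusted p = 0.632 in DKO, 0.654 in KO and 0.692 in WT).

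In all, the DKO change differed from the WT change in 5 of 10 genes (42.0% of all genes), 1 higher (21.1%) and 4 lower (20.8%), and the KO change differed from it in 3 of 10 (16.3% of all genes), 1 higher (9.07%) and 2 lower (7.24%). The mutant changes share the WT libraries they were set against. The DKO library of day 8 had the highest ES marker sum after differentiation. Leaving out a day 8 library left 1 differentiated library of that genotype, so only sizes on the log2 scale are given. The fit moved that day 12 library toward the midpoint of the days by the day change of the other genotypes. These sizes are thus not plain differences of day 12 from ES cells. Without DKO day 8, the DKO difference from the WT change was 3.14 for Ccne1, -2.75 for Cdkn1b, -1.93 for Ccnd3, -1.74 for Rb1 and -3.70 for Cdkn2c. Within DKO the change was then -1.06 for Cdkn1b, -1.03 for Ccnd3 and 2.51 for Cdkn2a. The Cdkn1b value rests in part on that shift. Cdkn1b at day 12 divided by its level at day 8 was 0.785 in DKO, 1.38 in KO and 1.44 in WT. Without KO day 8, the KO difference from the WT change was -1.08 for Ccnd3, -2.69 for Cdkn2b, -2.24 for Cdkn2a and 1.18 for Ccne1. Within KO the change was then -1.77 for Ccne1, 1.80 for Cdkn1b and -1.47 for Cdkn2a. The KO values of Cdkn2a, -2.24 and -1.47, rest in part on that shift. In KO, Cdkn2a was at 26.7 TMM-scaled RPKM at day 12, against 33.3 ± 2.67 in KO ES cells. Its level at day 12 divided by that at day 8 was 0.926 in KO, 4.22 in DKO and 6.13 in WT. No gene of the 10 differed between KO and WT in its change without either ES library of WT or KO or without DKO ES replicate 2.

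Over all 3 genotypes together, 2 of 10 genes differed between differentiated and ES cells (35.8% of all genes), Cdkn2b higher (20.1% of all genes were) and Ccna2 lower (15.7%). The log2 fold changes were 1.60 for Cdkn2b (SE 0.51, edgeR adjusted p = 0.0333, 0.87 on limma's log2(RPKM + 1) scale) and -0.43 for Ccna2 (SE 0.15, edgeR adjusted p = 0.0436), while Ccne1 stood at -1.31 (0.0743) and Cdkn1b at 0.94 (0.0715). Without DKO day 8, 4 genes passed, with Ccna2 at -0.53 (edgeR adjusted p = 0.0154), Ccne1 at -1.60 (0.0144), Cdkn1b at 1.18 (0.0293) and Cdkn2b at 1.81 (0.0125). Both calls were lost without either WT ES library or without DKO day 12, Cdkn2b also without KO ES replicate 1, DKO ES replicate 1 or KO day 12, and Ccna2 with limma, with no filter and without KO ES replicate 2, DKO ES replicate 2, WT day 8, WT day 12 or KO day 12, up to adjusted p = 0.1 for Cdkn2b and 0.0998 for Ccna2.

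Between genotypes at days 8 and 12, with day in the model, none of the 10 genes passed edgeR's test. In DKO against WT 2.18% of all 12896 genes were called, in KO against WT 0.0% and in DKO against KO 0.00775%. At an unadjusted p under 0.05 there were 3 genes of the 10 in DKO against WT, 3 in KO against WT and 1 in DKO against KO, beside 3970, 3002 and 2161 of all genes. The largest differences among them were those of Cdkn2b, -1.97 on the log2 scale in DKO against WT (edgeR adjusted p = 0.0956) and -2.33 in DKO against KO (0.219), and of Ccnd3, -1.32 in DKO against WT (0.0959). E2f1 stood at 0.74 in DKO against WT (0.098) and at 0.89 in KO against WT (0.122). DESeq2, which called 24.3%, 14.2% and 9.12% of all genes in these 3 comparisons, called Ccnd3 (-1.36, adjusted p = 0.00483) and Cdkn2b (-2.01, 0.0111) lower in DKO than in WT, E2f1 higher in KO than in WT (0.85, 0.0259) and Cdkn2b lower in DKO than in KO (-2.34, 0.0067), and limma called none of the 10. Between day 12 and day 8 none of the 10 passed either, where edgeR called 0.0% and DESeq2 4.39% of all genes, and 2 had an unadjusted p under 0.05, E2f1 (-0.65, edgeR adjusted p = 0.373) and Cdkn2b (1.50, 0.376), beside 1582 of all genes. DESeq2 and limma called none of the 10 between days.

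Ccne1 and Cdkn1b, an activator of CDK2 and its inhibitor, can be read side by side in each library. The level of Ccne1 divided by that of Cdkn1b was 0.122 and 0.109 in DKO ES cells, 4.34 in both KO ES libraries, and 3.45 and 3.73 in WT ES cells. At days 8 and 12 it was 0.315 and 0.199 in DKO, 0.807 and 0.303 in KO, and 0.163 and 0.123 in WT. DKO ES cells thus had the lowest values of the series, next to those of WT cells at days 8 and 12, while their ES marker sum was 4369 and 3788 TMM-scaled RPKM, against 483 and 402.0 in those WT libraries. These RNA levels do not measure protein or kinase activity.

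**Figure D4:**
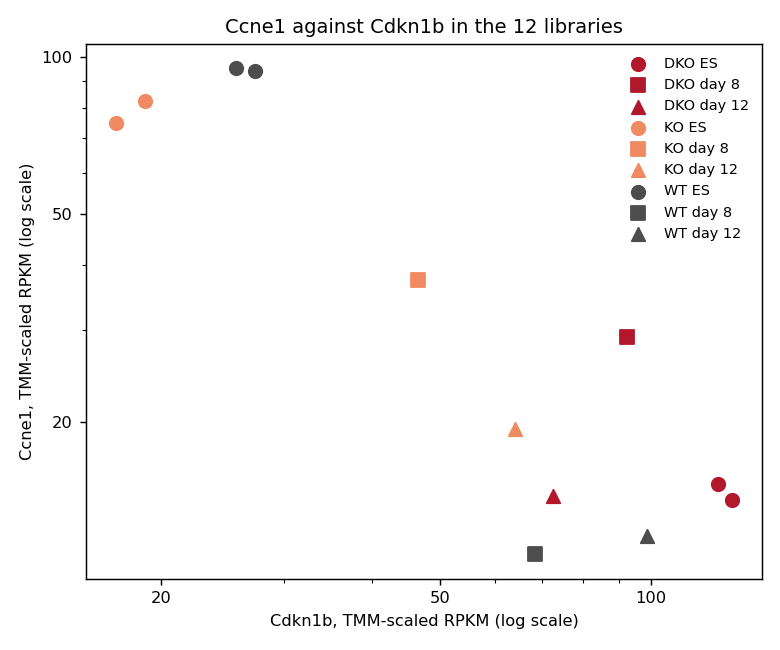
Ccne1 against Cdkn1b in each of the 12 libraries, both as TMM-scaled RPKM on log scales, with colour for genotype and symbol for state. KO and WT ES cells lie at the upper left (ratios of 3.45 to 4.34) and DKO ES cells at the lower right (0.109 and 0.122).

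Other regulators of the G1/S step moved both ways in mutant ES cells. Of 28 listed genes 27 were tested, and in DKO against WT ES cells 6 were higher and 12 lower (32.2% and 31.7% of all genes, median log2 fold change -0.25, against -0.01 over all genes). In KO against WT 4 were higher and 10 lower (23.5% and 19.2% of all genes, median -0.13). Mycn, a MYC factor that drives growth, was at 8.54 and 6.96 TMM-scaled RPKM in DKO ES cells and 178 and 186 in KO ES cells, against 202 and 199 in WT ES cells (DKO against WT log2 fold change -4.69, SE 0.14, edgeR adjusted p = 5.95e-10). The DKO level was far under both others. Ccnd1, the gene of cyclin D1, was at 32.6 and 36.3 TMM-scaled RPKM in DKO ES cells and 71.2 and 75.0 in KO ES cells, against 94.4 and 104 in WT ES cells (DKO against WT -1.51, edgeR adjusted p = 3.39e-07). Ccnd2, the gene of cyclin D2, stood at -4.48 in DKO (edgeR adjusted p = 2.12e-09) and -3.10 in KO (3.04e-08) against WT, and Myc at -3.23 (6.65e-09) and -1.67 (1.54e-06), as log2 fold changes. Cdkn1a, the gene of the inhibitor p21, was higher, at 91.8 and 85.1 TMM-scaled RPKM in DKO ES cells and 84.8 and 104 in KO ES cells, against 34.7 and 31.2 in WT ES cells (log2 fold changes 1.43 in DKO and 1.55 in KO, edgeR adjusted p = 1.48e-06 and 2.58e-06). Cdk6, a partner kinase of cyclin D, was lower in both mutants than in WT. Its log2 fold changes were -0.95 in DKO (edgeR adjusted p = 8.48e-05) and -1.59 in KO (4.33e-06). Cdkn1c, the gene of the inhibitor p57, was 1.60 higher on the log2 scale in DKO than in KO (edgeR adjusted p = 6.27e-07). Against WT its log2 fold change was -1.30 in KO (edgeR adjusted p = 1.22e-05) and 0.30 in DKO, which did not pass (0.0595).

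On differentiation 5 of the 27 rose and 1 fell in DKO, 2 rose and 6 fell in KO, and 5 rose and 14 fell in WT (medians -0.05, -0.08 and -0.50). Of all genes 10.4% rose and 9.24% fell in DKO, 15.8% and 13.5% in KO, and 31.2% and 29.8% in WT. Without DKO day 8, with DKO day 12 moved by the day change of the other genotypes, the median was -0.07 in DKO. Mycn rose in DKO to 135 and 168 TMM-scaled RPKM at days 8 and 12, against 8.54 and 6.96 in DKO ES cells (log2 fold change 4.30, SE 0.21, edgeR adjusted p = 0.000171), and was at 98.3 and 75.8 in WT. Its low level in DKO ES cells was thus not kept at days 8 and 12. Ccnd1 fell in WT by 2.60 on the log2 scale (SE 0.14, edgeR adjusted p = 1.27e-05) and rose in DKO by 0.56 (SE 0.13, edgeR adjusted p = 0.0234). It was at 58.6 and 43.7 TMM-scaled RPKM at days 8 and 12 in DKO and 39.1 and 32.5 in KO, against 19.6 and 12.7 in WT. Ccnd1 was the 1 gene of the list called between DKO and WT at those days (1.68, SE 0.19, edgeR adjusted p = 0.0469). That call was lost, as was every other in that comparison, with any 1 DKO or KO library of days 8 and 12 left out. Cdkn1c rose in WT by 3.76 (SE 0.36, edgeR adjusted p = 8.29e-05). Its change differed from that by -3.14 in DKO (edgeR adjusted p = 0.00148) and by -3.60 in KO (0.00407).

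Genes that E2F factors switch on for DNA replication fell on differentiation, furthest in WT. Of 22 tested, 5 fell in DKO, 13 in KO and 22 in WT, and none rose (medians -0.40, -0.59 and -1.24 on the log2 scale), where 9.24%, 13.5% and 29.8% of all genes fell in DKO, KO and WT. Rrm2, a subunit of ribonucleotide reductase, fell in all 3, with a log2 fold change of -1.04 in DKO (SE 0.13, edgeR adjusted p = 0.00244), -0.79 in KO (0.00404) and -2.08 in WT (2.06e-05). Mcm5, a subunit of the replicative helicase, likewise had log2 fold changes of -0.69 in DKO (edgeR adjusted p = 0.00762), -0.88 in KO (0.00227) and -1.81 in WT (2.46e-05). The difference from the WT change was positive and passed for 14 of 22 in DKO and for 11 of 22 in KO, and for none was it negative (medians 0.97 and 0.90, against -0.02 and 0.03 over all genes). Of all genes 21.1% in DKO and 9.07% in KO had such a positive difference. Without the DKO library of day 8 the medians were -0.41 within DKO and 1.03 for the difference from WT. Without the KO library of day 8 they were -0.68 within KO and 0.91 for the difference from WT. In both fits the day 12 library left was moved by the day change of the other genotypes. In ES cells the list was split, 3 higher and 8 lower in DKO against WT and 2 higher and 3 lower in KO against WT (medians -0.10 and -0.02). Of all genes 32.2% were higher and 31.7% lower in DKO against WT, and 23.5% and 19.2% in KO against WT. Between DKO and WT at days 8 and 12, Mcm2 (1.65, edgeR adjusted p = 0.0472) and Rrm2 (1.36, 0.0491) were higher in DKO. Both calls were lost with any 1 DKO or KO library of days 8 and 12 left out, as was every other edgeR call in that comparison. The part of the ES markers kept in DKO and KO in these counts was not tested.

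Genes of G2 and mitosis fell in WT as well. Of 17 tested, 4 fell in DKO, 2 in KO and 15 in WT on differentiation, and none rose (medians -0.31, -0.20 and -0.83), beside 9.24%, 13.5% and 29.8% of all genes that fell in DKO, KO and WT. Without KO day 8 the median was 0.0071 in KO, and without DKO day 8 it was -0.37 in DKO. Both fits moved the day 12 library left by the day change of the other genotypes. In the KO library of day 12 itself, Birc5, Bub1b, Ccnb1, Ccnb2, Ccnf, Cdc20, Cenpe, Kif11, Plk1 and Top2a lay under both KO ES libraries. Aurkb and Foxm1 lay above both, and Bub1 and Cenpf lay between them. Ccnb1, the gene of cyclin B1, fell by 1.35 in WT (SE 0.13, edgeR adjusted p = 0.000102), and its change differed from WT by 1.08 in DKO (0.00282) and 1.06 in KO (0.0102). The difference from the WT change was positive and passed for 8 of 17 in DKO and 7 of 17 in KO, where 21.1% and 9.07% of all genes did. Its median was 0.58 in DKO and 0.62 in KO. With the same shift, the median of the difference was 0.46 in DKO without DKO day 8 and 0.86 in KO without KO day 8. In ES cells 7 were higher and 5 lower in DKO against WT (32.2% and 31.7% of all genes), among them the mitotic motor gene Kif11 (1.23, SE 0.13, edgeR adjusted p = 7.53e-06) and the kinase gene Aurkb (-1.11, SE 0.12, edgeR adjusted p = 8.22e-06), and 2 were higher and 2 lower in KO against WT (23.5% and 19.2% of all genes).

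**Figure D5:**
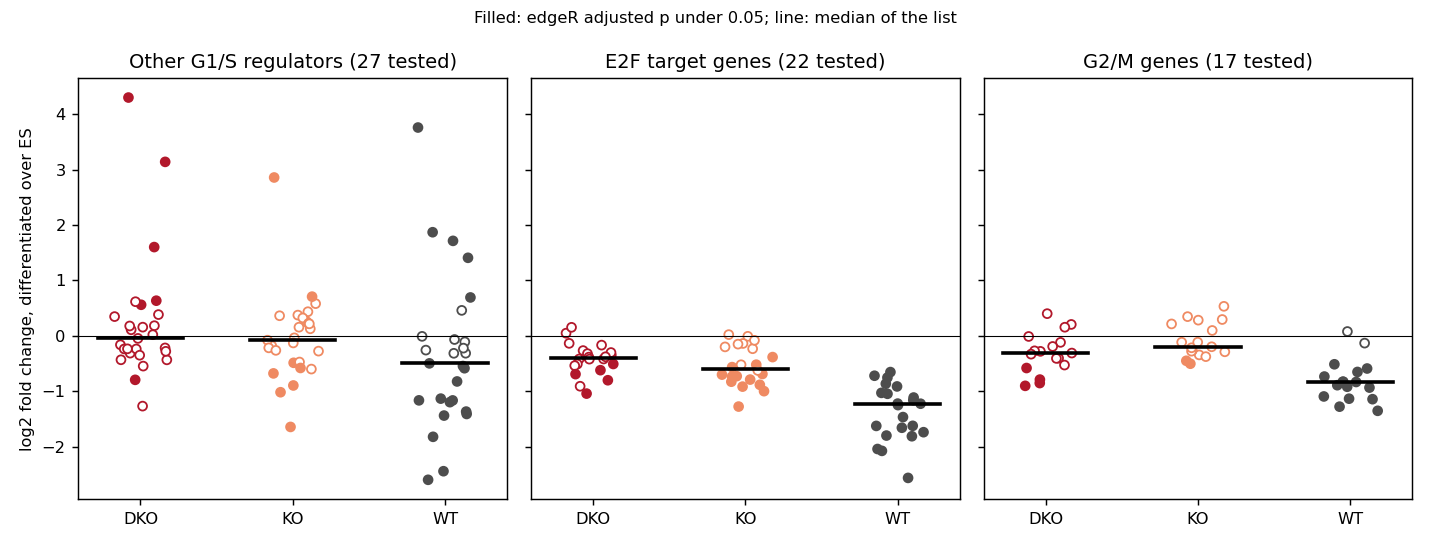
Log2 fold change of differentiated over ES cells within DKO, KO and WT for each tested gene of 3 lists (27 other G1/S regulators, 22 E2F target genes and 17 G2/M genes). Filled points passed an edgeR adjusted p of 0.05 and lines mark list medians. For the E2F targets the medians are -0.40 in DKO, -0.59 in KO and -1.24 in WT.

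The genes whose pattern over the 12 libraries was nearest to each member were found by the root mean square difference of centred log2(TMM-scaled RPKM + 1) values among 13265 genes, as a description with no test. For Ccna2 they were Ncapg (0.107) and Chaf1a (0.112), where the SD of Ccna2 itself was 0.33, and for E2f1 they were Pkmyt1 (0.149) and A630055G03Rik (0.172), with an SD of 0.435. For Ccne1 they were Gm6792 (0.225) and Morc1 (0.276), with an SD of 1.15, and for Cdkn1b Pdgfrl (0.315) and Igf1r (0.335), with an SD of 0.975. Rb1 lay nearest to Tspyl1 (0.209) and Dzip1 (0.242), with an SD of 0.611, and Ccnd3 to Zbtb46 (0.212) and Acsf2 (0.234), with an SD of 0.508. Cdkn2a and Cdkn2b had looser neighbours, Ncrna00086 (0.39) and B4galnt3 (0.478) for Cdkn2a (SD 1.21) and Fcgr3 (0.388) and Foxj2 (0.391) for Cdkn2b (SD 0.989). Ccne2 lay nearest to Actr10 (0.105) and Usp16 (0.14), with an SD of 0.188, and Cdkn2c to Dnajb14 (0.231) and BC046404 (0.25), with an SD of 0.496.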

How the data were processed

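Polyadenylated RNA of 12 libraries was sequenced on an Illumina platform, per the labels' protocols. Reads were aligned with Bowtie2 to mm9, per the submitters' processing notes. The counting program and its use of strand are not given in the sources used here, so reads of overlapping antisense genes cannot be told apart. The deposited tables hold whole-number counts for each of 29257 transcript models. They also hold RPKM, which the authors made with exon length and a library total larger than the reads in genes. The levels printed here are therefore 1.652 to 1.996 times the deposited RPKM. Reads shared by models of 1 symbol enter each of them, and the longest model was used (4019 symbols have several).

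The counts were tested with edgeR 4.0.16 (quasi-likelihood, TMM scaling, R 4.3.3) on all genes that reached 1 deposited RPKM in 2 or more of the libraries fitted, with Benjamini-Hochberg adjustment over all genes tested. Standard errors were taken as the absolute log2 fold change over the root of F. ES comparisons used 6 libraries (3 residual degrees of freedom), comparisons at days 8 and 12 used 6 libraries with genotype and day (2), those within a genotype and between their changes fitted 6 means (genotype by state) and day (5), and that over all genotypes used genotype and state (8). Alternatives were DESeq2 1.42.0, limma 3.58.1 on log2(RPKM + 1) and on log2(RPKM + 0.1), no filter, DESeq2 size factors, the model with the most reads, only the 2 genotypes compared, the replicate number as a block, and each library left out in turn. With a differentiated library left out, fits within a genotype moved the one that remained by the day change of the other genotypes. Python 3.11.15, pandas 2.3.3, numpy 2.4.6 and matplotlib 3.10.9 were used for tables and plots. The tests were run on simulated counts first.

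The 10 members and the pathway and marker lists were chosen with earlier results of these data known. All members were named, with up to 4 genes of a pathway list with the smallest adjusted p per comparison; Pou5f1, Col1a1 and the per-library values of listed genes were picked after their values were seen. Start windows come from RefSeq tables of GRCm38.p6, which is not the build of the counts.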

Additional observations from a re-analysis of the deposited data

Results flagged for a closer look

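For 8 results the change on differentiation differed between a mutant and WT by the test of that difference itself (edgeR adjusted p under 0.05, on the log2 scale). Set against WT, the DKO change differed by 3.43 for Ccne1 (SE 0.36, edgeR adjusted p = 0.000365), -2.30 for Cdkn1b (SE 0.29, 0.000786), -1.95 for Rb1 (SE 0.46, 0.0107), -1.42 for Ccnd3 (SE 0.37, 0.0155) and -3.51 for Cdkn2c (SE 0.93, 0.0178). Set against WT, the KO change differed by -1.55 for Ccnd3 (SE 0.37, edgeR adjusted p = 0.0272), 1.41 for Ccne1 (SE 0.35, 0.0317) and -2.01 for Cdkn2b (SE 0.56, 0.0454). Ccne1 and Cdkn1b in DKO started in ES cells at 14.7 ± 0.703 and 128 ± 4.02 TMM-scaled RPKM, against 94.6 ± 0.874 and 26.4 ± 1.17 in WT ES cells (SD, n = 2 each). No group had the 4 libraries needed to look for a library far from the rest.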

How the results depend on the processing

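No call reversed. The 38 calls on members were recomputed to 612 values, of which 544 stayed past the threshold and 68 did not, 60 of these with a library left out and 8 under another setting. Of the 38, 24 held throughout and 34 held under every setting that kept all libraries. The replicate numbers did not pair the ES libraries (correlations of -0.00635 for KO and WT, -0.0549 for DKO and WT and -0.104 for DKO and KO), and with the replicate block 5, 6 and 7 members changed in DKO against WT, KO against WT and DKO against KO, as without it. In every case below the cause was not tested. DESeq2 called more genes than edgeR at days 8 and 12: 3139 in DKO against WT (limma 911 and 714 at pseudocounts of 0.1 and 1), 1836 in KO against WT (limma 160 and 136, and 7 with no filter), 1176 in DKO against KO (limma 15 and 5) and 566 between days, with 2, 1 and 1 members in the 3 genotype comparisons. It called 3308 genes for the KO difference in change, 2 members within DKO and 4 over all genotypes, where 1 passed with no filter. With 1 library left out, members called ranged over 4 to 5 in DKO against WT ES cells (6021 to 8054 of all genes), 5 to 7 in KO against WT (3409 to 6419), 6 to 8 in DKO against KO (6862 to 8498), 0 to 3 within DKO (543 to 4560), 2 to 3 within KO (1013 to 5701), 5 to 8 within WT (5912 to 8629), 3 to 7 for the DKO difference in change (3576 to 6801), 0 to 4 for that of KO (396 to 3913) and 0 to 4 over all genotypes (2892 to 6112). At days 8 and 12 it was 0 members throughout, with 0 to 1936 genes in DKO against WT, 0 to 241 in KO against WT, 0 to 290 in DKO against KO and 0 between days. Cdkn2b and Cdkn2c had only 18 to 364 and 8 to 93 reads per library, and each genotype had 1 library per day.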
